A study of Homo sapiens with 14 samples.

Results

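The adenosine and cytidine deaminases of the ADAR, ADAT and APOBEC3 families were followed through PARS-seq, RNA-seq and Ribo-seq of cells labelled HepG2, a human liver tumour line. They were chosen by gene symbol, as *ADAR*, *ADARB1*, *ADARB2*, *ADAT1*, *ADAT2*, *ADAT3*, *APOBEC3B*, *APOBEC3C*, *APOBEC3F* and *APOBEC3G*, and all 10 were found among the 21574 gene entries of the RPKM table. Of the 10 genes, 8 have an entry of their own and 2 share one, *ADAT3* with *SCAMP4* and *APOBEC3B* with *APOBEC3A*, so that the values of these genes cannot be separated from those of the partner. The control cells received scrambled siRNA and the knockdown (KD) cells received siADAR1, which targets the transcript listed as *ADAR*. Silencing lasted 48 h with siRNA at 20 μM, and both the labels and the methods call the transfection stable. PARS-seq sequences fragments cut by nuclease S1, which prefers single-stranded RNA, or by RNase V1, which prefers double-stranded RNA, and Ribo-seq sequences the stretches of mRNA that ribosomes protect. The 14 samples comprise 4 control and 4 KD libraries of PARS-seq, a single RNA-seq library per condition, and 2 control and 2 KD libraries of Ribo-seq. In PARS-seq each column of RPKM (read counts divided by transcript length and by library size) is the authors' mean of a replicate's S1 and V1 libraries, which leaves 2 columns per condition, and the S1 and V1 libraries were not analysed here separately for these genes.

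ADAR enzymes convert adenosine to inosine in double-stranded RNA, where inosine is read as guanosine, and ADAT enzymes carry out the same reaction on tRNA. APOBEC3 proteins are cytidine deaminases that act on single-stranded DNA and are known for restricting retroviruses and mobile elements. The catalytic members of these families hold a zinc ion in the active site through a histidine and cysteines, beside a glutamate that shuttles protons.

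The label of the cells was compared with their defining transcripts before any comparison of conditions. Of the 8 hepatocyte and HepG2 markers (*ALB*, *AFP*, *TF*, *SERPINA1*, *TTR*, *APOA1*, *APOB* and *FGB*), the highest value in any of the 10 columns was 0.0821 RPKM, for *APOA1* in the RNA-seq control, and 55 of the 80 values were 0. Their summed level was 0.0546 to 0.0685 RPKM in the PARS-seq columns, 0.0954 in the RNA-seq control and 0.126 in RNA-seq KD, and all 8 were at 0 in every Ribo-seq library. The defining transcripts of the labelled line were therefore absent or nearly absent, and the cells are called here by their label only. Among 6 markers of blood, endothelium and fibroblasts or stellate cells (*PTPRC*, *CD3E*, *PECAM1*, *VWF*, *COL1A1* and *COL1A2*), only *COL1A1*, a chain of type I collagen, passed 1 RPKM. It was at 19.5 and 29.3 RPKM in the PARS-seq control columns, 16.6 and 19.4 in the KD columns, 54.7 in the RNA-seq control, 40.4 in RNA-seq KD and 9.75 to 14.3 over the Ribo-seq libraries. Its PARS-seq KD columns lay below the control columns with no call (limma, adjusted p = 0.242), and its part in the differences of the deaminases was not tested.

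**Figure D1:**
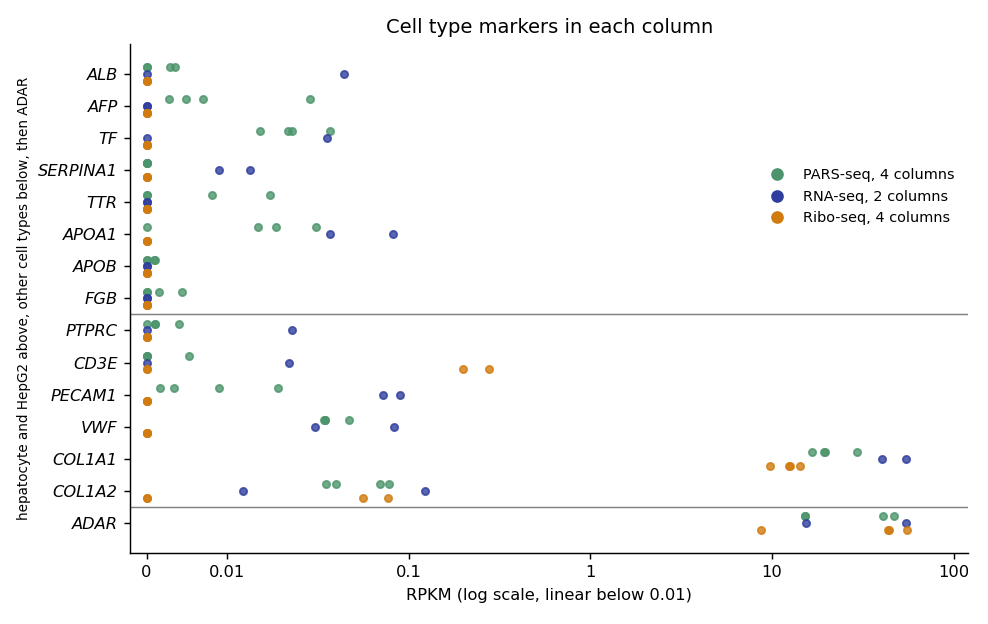
RPKM (log scale, linear below 0.01) of 8 hepatocyte and HepG2 markers, of 6 markers of other cell types and of ADAR, with a point per column and a colour per assay. All points of the 8 markers lie at or below 0.0821 RPKM, while ADAR lies between 8.73 and 55.5.

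The genes lie on 7 chromosomes, with coordinates given on GRCh37, the build of the authors' alignments. *ADAR* spans chr1:154554171-154600489 on the minus strand, *ADARB1* chr21:46493768-46646475 on the plus strand and *ADARB2* chr10:1223253-1779719 on the minus strand. The 4 APOBEC3 members lie in a cluster on the plus strand of chromosome 22, from *APOBEC3B* at chr22:39378352-39388809 through *APOBEC3C* at chr22:39410262-39416357 and *APOBEC3F* at chr22:39436609-39451977 to *APOBEC3G* at chr22:39473072-39483748.

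Over the whole coding sequences, the longest run of identical bases was 131 between *APOBEC3B* and *APOBEC3F*, 142 between *APOBEC3F* and *APOBEC3G* and 81 between *APOBEC3C* and *APOBEC3F*. It was 38 between *APOBEC3B* and *APOBEC3G*, 23 between *APOBEC3B* and *APOBEC3C* and 18 between *APOBEC3C* and *APOBEC3G*, and 23 between *ADAR* and *ADARB1*. Reads that align to more than a single place were removed by the authors, so that levels of the APOBEC3 genes are uncertain where their sequences coincide, and how many reads this removed was not analysed here.

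RPKM is a quotient of whole reads, and the whole reads behind the RNA-seq and Ribo-seq values could be recovered from the ratios between low values. Of 11203 genes above 0 in these 6 columns, 11110 (99.2%) came out within 0.02 read of a whole number in each. The recovered genes held 33697026 reads in the RNA-seq control and 25132282 in RNA-seq KD, but 616805 and 1629756 in the Ribo-seq control replicates and 851834 and 1303515 in the replicates labelled KD. *ADAR* had 15816 and 3289 reads in RNA-seq control and KD. In the Ribo-seq controls it had 308 and 1307 reads, and in the libraries labelled KD 87 and 751. *APOBEC3C*, among the most abundant members by RPKM, had 1893 and 1166 reads in RNA-seq and 44 to 72 in Ribo-seq, and *ADAT2* had 197 and 106 in RNA-seq and 2 to 20 in Ribo-seq. Reads were therefore few for most members in Ribo-seq, and in RNA-seq for *ADAT2* and for *APOBEC3F*, with 24 and 22 reads. *APOBEC3G* was at 0 RPKM in all 10 columns.

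**Figure D2:**
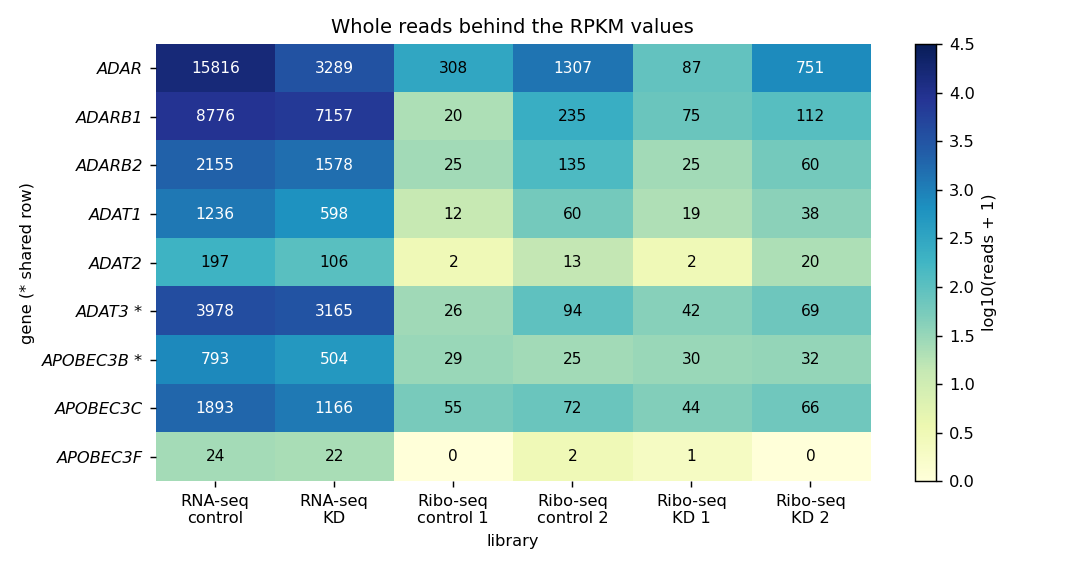
Whole reads behind the RPKM of each deaminase (vertical) in the 2 RNA-seq and 4 Ribo-seq libraries (horizontal), with colour as log10 of reads plus 1. ADAR has 15816 reads in the RNA-seq control and 87 in the Ribo-seq library labelled KD replicate 1, and ADAT2 has 2 in each Ribo-seq library of replicate 1.

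In control cells *ADAR*, the gene of the editing enzyme ADAR1, had the highest level of the 10 genes in PARS-seq and RNA-seq and the highest mean in Ribo-seq, where *APOBEC3C* was above it in control replicate 1. Its PARS-seq level was 40.7 and 46.8 RPKM, above 91.7% of all gene entries, and *APOBEC3C*, a restriction factor with a single deaminase domain, came next at 15.8 and 11.9 RPKM. Neither range overlapped that of the next gene in the order. *ADARB1*, which encodes the second editing enzyme ADAR2, had 5.75 and 8.89 RPKM and overlapped *ADAT2*, the catalytic subunit of the tRNA enzyme, at 4.29 and 7.57 RPKM. The levels of *APOBEC3B*, *ADAT3*, *ADAT1* and *ADARB2* followed between 2.50 and 5.51 RPKM, each overlapping its neighbour in the order. *APOBEC3F* stood apart below them at 0.401 and 0.250 RPKM. The order in the single RNA-seq control was *ADAR* (54.8 RPKM), *APOBEC3C* (41.9), *ADARB1* (30.2), *ADAT3* (23.9), *ADAT1* (8.42), *APOBEC3B* (6.53), *ADARB2* (5.83), *ADAT2* (0.774) and *APOBEC3F* (0.117), with no replicate to show which neighbours differ. In the Ribo-seq controls, *ADAR* at 43.6 and 55.5 RPKM overlapped *APOBEC3C* at 49.8 and 19.5 RPKM, and *ADAT3*, *ADARB1*, *APOBEC3B*, *ADAT1* and *ADARB2* overlapped in turn between 2.52 and 9.90 RPKM.

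**Figure D3:**
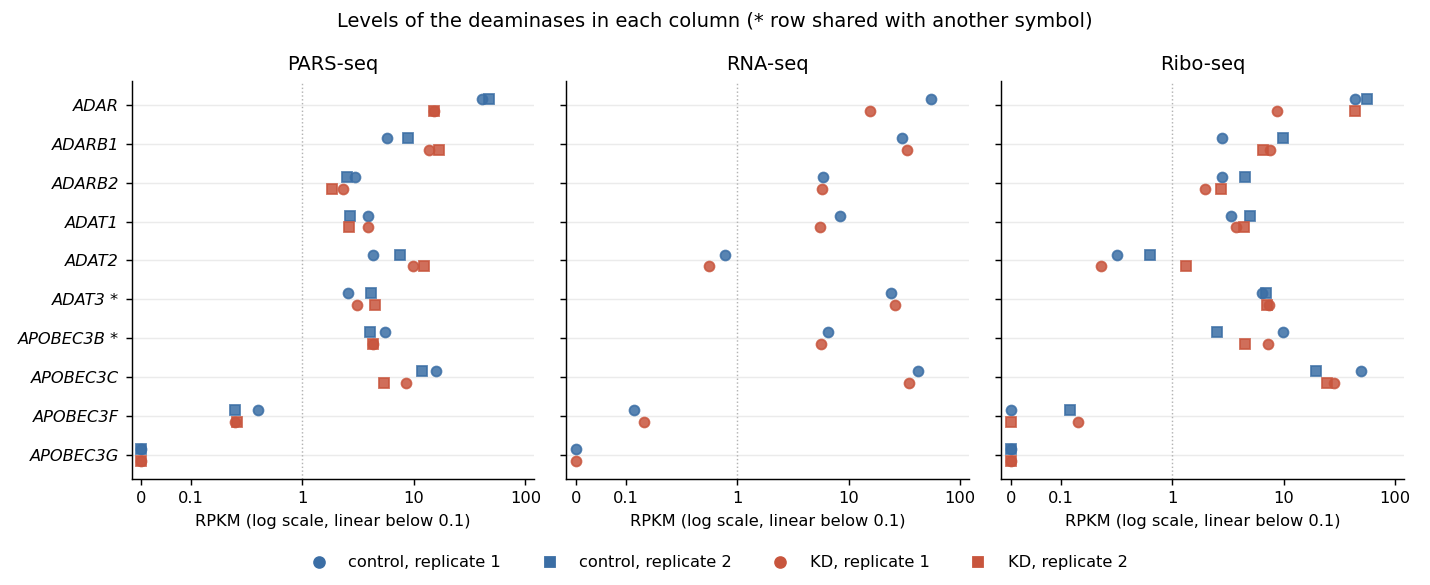
RPKM of the 10 deaminases (log scale, linear below 0.1) in PARS-seq, RNA-seq and Ribo-seq, with a point per column, colour for control or KD and shape for the replicate number. ADAR in PARS-seq lies at 40.7 and 46.8 in control and at 15.1 in both KD columns, while in Ribo-seq the library labelled KD replicate 2 lies at 44.0, within the control range.

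The assays placed several members differently in control cells. *ADAT2* was at 5.93 RPKM in PARS-seq (authors' means, averaged over 2 columns) and 0.774 in RNA-seq, a ratio of 7.66, which exceeded that of 90.9% of the 11941 genes with a mean of at least 1 RPKM in PARS-seq or RNA-seq. *ADAT3*, its partner in the enzyme that makes the inosine of the tRNA anticodon, had 3.34 RPKM in PARS-seq and 23.9 in RNA-seq, a ratio of 0.140 that exceeded 3.74% of genes. *ADARB1* had a PARS-seq to RNA-seq ratio of 0.243, above 9.66% of genes, and *ADAR* one of 0.799, above 43.6%. *ADAT2* is among these genes only through its PARS-seq level, which fixes a ratio above 1, and the value of *ADAT3* is shared with *SCAMP4*. In Ribo-seq, *ADARB1* averaged 6.35 RPKM against 30.2 in RNA-seq, 4.75 times less, but 10.7 times less in control replicate 1 and 3.05 times less in control replicate 2. Its ratio of Ribo-seq to RNA-seq lay above 2.11% of 11686 genes with a mean of at least 1 RPKM in either, or above 1.13 and 12.9% with a single library of Ribo-seq. The corresponding value was 6.56% for *ADAT3* (12.5 and 9.54% with a single library) and 59.1% for *ADAR* (51.7 and 72.1%). *APOBEC3C*, at 54.8%, lay at 68.3 and 28.4% in the single libraries, and *APOBEC3B*, at 61.4%, at 75.2 and 27.1%, so that their place depended on the library. The assays were scaled separately, and these ratios describe the control libraries with no test.

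**Figure D4:**
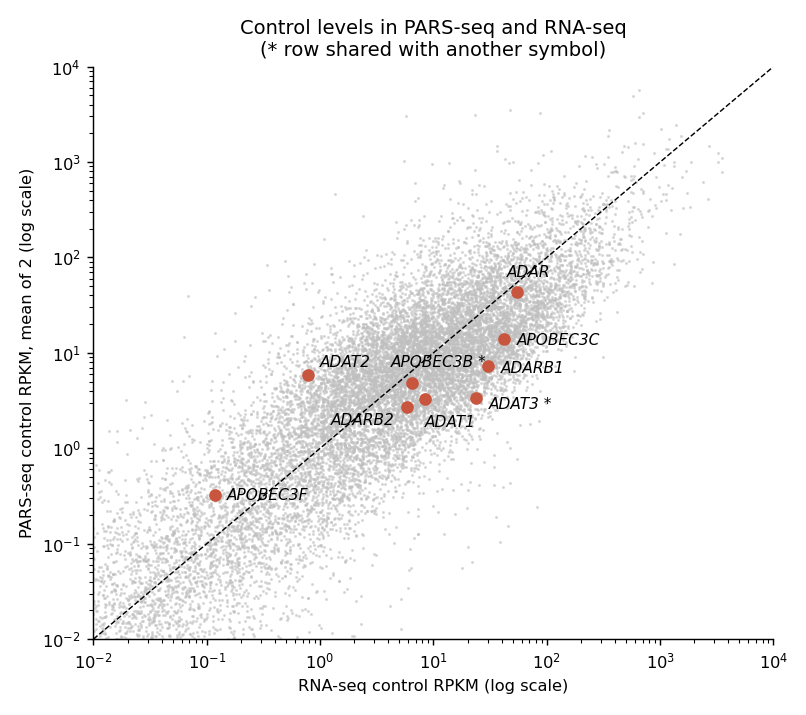
Control levels in PARS-seq (vertical, mean of 2 columns) against RNA-seq (horizontal, single library) of genes above 0 in both, in RPKM on log scales. Genes below the axis limits are not shown. The deaminases are in red, and equal values lie on the dashed line. ADAT2 lies above the line at 5.93 against 0.774 RPKM, and ADAT3, in an entry shared with SCAMP4, below it at 3.34 against 23.9.

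The comparison of KD with control asked which deaminases changed level when ADAR1 was silenced. In PARS-seq, where 8 of the 10 genes passed a mean of 1 RPKM, *ADAR* and *APOBEC3C* fell and *ADARB1* rose, so that 3 of 8 were called by limma at an adjusted p of 0.05, against 15.5% of the 11153 genes tested (32.2% at an unadjusted p of 0.05). The call was upward for 1 of the 8 and downward for 2, while 8.06% of all genes tested were called up and 7.43% down. *ADAR*, the target of the siRNA, is 1 of the 3 calls and 1 of the 2 downward calls. Its fall was the aim of the design, so that these counts are not read against the background. Both KD columns lay on the same side of both control columns in 5 of 8 members, against 60.5% of genes tested, a share near the background. KD was above control in 2 of these (33.3% of genes tested) and below in 3 (27.1%). The median difference of the 8 members was −0.06 on the log2(RPKM + 1) scale, beside 0.04 over all genes tested. This scale understates changes of genes at low levels. PARS-seq levels come from fragments cut by nucleases, and RNA abundance and cleavage cannot be told apart in them, nor can fewer cells holding a transcript and less of it in each cell.

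Among the editing enzymes, *ADAR* itself is the check of the labels, and both PARS-seq KD columns lay at 15.1 RPKM, far from the control columns given above. The difference was −1.47 ± 0.17 (SE, n = 2 columns against 2; limma, adjusted p = 0.002). *ADARB1* was at 5.75 and 8.89 RPKM in the control columns and 13.8 and 16.9 in the KD columns. The lowest KD value was above the highest control value, and the difference was 0.99 ± 0.21 (limma, adjusted p = 0.0203), with a 95% interval of 0.50 to 1.48. The level of *ADAR* relative to *ADARB1* accordingly went from 7.07 and 5.27 in the control columns to 1.09 and 0.894 in the KD columns, where the ranges of these genes overlapped. As a share of the summed RPKM of the 10 genes, *ADAR* made up 49.7 and 52.8% in control and 24.7 and 23.9% in KD. *ADARB2*, a brain-enriched relative for which no editing activity is known, was at 2.95 and 2.50 RPKM in control and 2.30 and 1.83 in KD. Its KD columns lay below its control columns, but the difference of −0.28 ± 0.15 was not called (limma, adjusted p = 0.220). Over 9 alternative fits the difference of *ADARB2* ranged from −0.40 to −0.17. Only the fit that included the replicate number called it (limma, adjusted p = 0.00917).

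No tRNA deaminase was called in PARS-seq in the main fit, and differences between these genes were not tested. *ADAT2* was at 4.29 and 7.57 RPKM in control and 9.84 and 12.2 in KD, so that the groups did not overlap, and the ratio of the means was 1.86. The difference of 0.83 ± 0.24 narrowly missed the threshold (limma, adjusted p = 0.0503). Of 10 alternatives, 4 called it, among them a minimum mean of 5 RPKM (adjusted p = 0.0428), leaving out control replicate 2 (1.18, adjusted p = 3.42e-05) and leaving out KD replicate 1 (0.97, adjusted p = 0.00374). It was 0.48 without control replicate 1 (adjusted p = 0.221) and 0.69 without KD replicate 2 (adjusted p = 0.064), neither called, and adjusted p ranged from 6.13e-13 to 0.291. *ADAT3*, which lacks the catalytic glutamate, was at 2.58 and 4.10 RPKM in control and 3.07 and 4.44 in KD, and its groups overlapped (0.14 ± 0.21; limma, adjusted p = 0.687). *ADAT1*, which deaminates the adenosine next to the anticodon of alanine tRNA, had 3.84 and 2.67 RPKM in control and 3.89 and 2.62 in KD, nearly the same pair of values in both conditions. The 95% interval of its difference ran from −0.46 to 0.45.

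Of the cytidine deaminases, *APOBEC3C* was at 15.8 and 11.9 RPKM in the PARS-seq control columns and 8.57 and 5.44 in the KD columns. All control values were above all KD values, with a difference of −0.91 ± 0.23 (limma, adjusted p = 0.0331), and the ratio of the means was 0.505. The entry of *APOBEC3B*, a nuclear cytidine deaminase, and *APOBEC3A* gave 5.51 and 4.06 RPKM in control and 4.29 and 4.33 in KD. Both KD values lay between the control values, and the interval of the difference was −0.49 to 0.27. *APOBEC3F* was at 0.401 and 0.250 RPKM in control and 0.247 and 0.257 in KD, below the minimum for the test. The call of *APOBEC3C* was lost without KD replicate 2 (−0.62, adjusted p = 0.106), and without the minimum level limma called none of 21574 genes, although 4661 had an unadjusted p under 0.05. Adjusted p was then 0.0662 for *ADAR*, 0.191 for *ADARB1* and 0.238 for *APOBEC3C*, the highest values of ranges over 10 alternatives that started at 2.29e-29, 5.01e-17 and 1.25e-14.

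**Figure D5:**
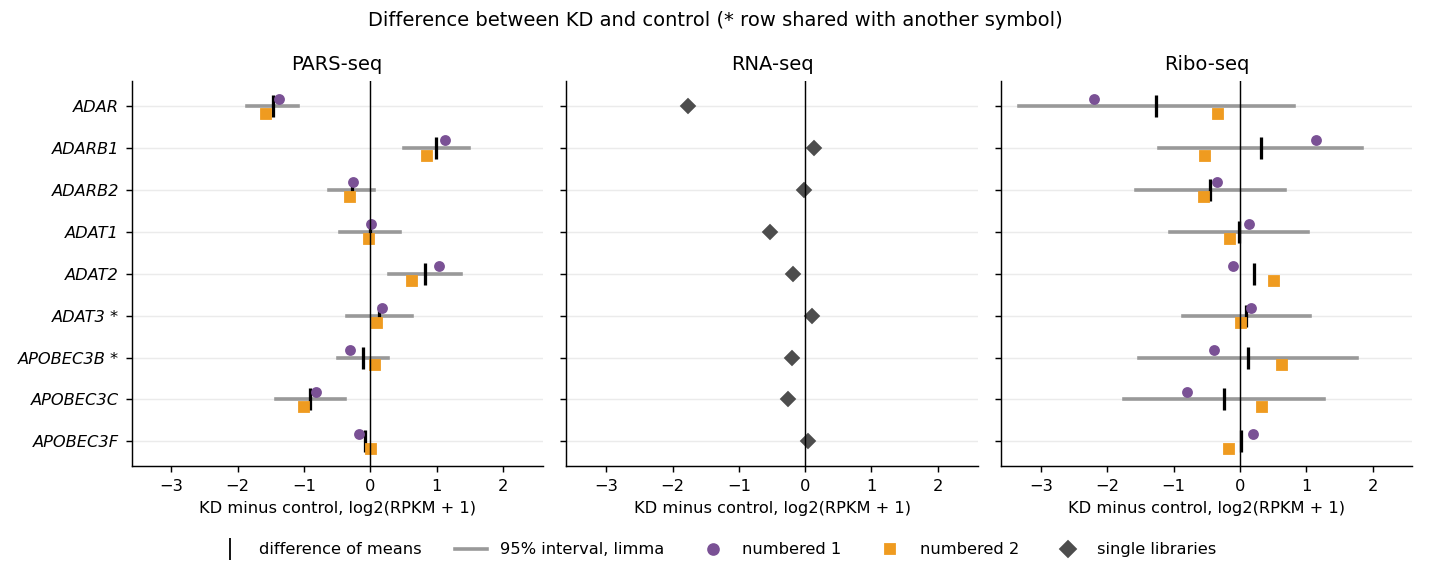
Difference of KD minus control on the log2(RPKM + 1) scale for the deaminases above 0 in PARS-seq, RNA-seq and Ribo-seq, with the difference of the means, its 95% interval from limma where tested, and the difference within each replicate number. In PARS-seq the intervals of ADAR, ADARB1, ADAT2 and APOBEC3C do not reach 0, and in Ribo-seq every interval does.

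The RNA-seq comparison rests on 1 library per condition, so that its differences describe these libraries and have no replicate check. *ADAR* went from 54.8 to 15.4 RPKM (−1.77 on the log2 scale) and was the only 1 of 7 members at or above a mean of 1 RPKM to pass 2-fold, as did 1.73% of 10946 genes, with 0.914% lower in KD. The largest of the other differences was that of *ADAT1*, from 8.42 to 5.49 RPKM, a ratio of 0.652 with a 95% interval of 0.591 to 0.720 from its 1236 and 598 reads (Clopper-Pearson, counting error only). *APOBEC3C* went from 41.9 to 34.8 RPKM, a ratio of 0.830 (0.771 to 0.894). For *ADARB1* the ratio of KD (33.2 RPKM) to control (30.2 RPKM) was 1.10 (1.07 to 1.13). The level of *ADAR* relative to *ADARB1* was 1.82 in control and 0.463 in KD, so that *ADAR* was the more abundant in the control library and the less abundant in the KD library. *ADAT2* went from 0.774 to 0.561 RPKM, a ratio of 0.725 (0.567 to 0.923), with an interval below 1 where the PARS-seq columns were higher in KD. Of 9 members with reads, the interval lay below 1 in 5, above 1 in 2 (*ADARB1* and *ADAT3*, at a ratio of 1.07) and held 1 in 2 (*ADARB2* and *APOBEC3F*). It lay on either side of 1 in 70.8% of 10823 genes, below in 36.8% and above in 34%, so that an interval away from 1 was the usual state between these libraries. The KD order of levels began with *APOBEC3C* (34.8 RPKM), *ADARB1* (33.2), *ADAT3* (25.7) and *ADAR* (15.4).

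In Ribo-seq, *ADAR* went against a label. It was at 43.6 and 55.5 RPKM in the control libraries, at 8.73 in the library labelled KD replicate 1 and at 44.0 in the library labelled KD replicate 2, which thus lay within the control range. The ratio of KD to control was 0.200 (0.156 to 0.255) between the libraries numbered 1 and 0.794 (0.725 to 0.869) between those numbered 2, with intervals that cover counting error only and do not overlap. The difference over all libraries was −1.26 with a 95% interval of −3.34 to 0.81 (limma, adjusted p = 1.0, and 0.0238 to 1.0 over 10 alternatives). It was −0.16 without the library labelled KD replicate 1 and −2.37 without the library labelled KD replicate 2. limma called 0 of 7 members tested and 0 of 10882 genes (0%), and 43 genes (0.395%) had an unadjusted p under 0.05. Without that library it again called 0 genes, with 83 at an unadjusted p under 0.05. All directions given below for Ribo-seq rest on a KD group in which 1 of 2 libraries had *ADAR* at a control level.

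*ADARB1* had 2.81 and 9.90 RPKM in the Ribo-seq controls and 7.47 and 6.52 in the libraries labelled KD. The control values enclosed both of the others, and the ratio of KD to control was 2.66 (1.61 to 4.60) for number 1, from 20 and 75 reads, but 0.658 (0.521 to 0.828) for number 2, from 235 and 112 reads. Relative to *ADARB1*, *ADAR* was at 15.5 and 5.60 in the controls, at 1.17 in the library labelled KD replicate 1 and at 6.76 in the library labelled KD replicate 2. *APOBEC3C* likewise had both libraries labelled KD, at 28.2 and 24.7 RPKM, between its controls at 49.8 and 19.5. Its ratio was 0.567 (0.373 to 0.859) for number 1 and 1.27 (0.893 to 1.79) for number 2, where the interval held 1. *ADARB2* had 2.77 and 4.48 RPKM in the controls and 1.96 and 2.75 in the libraries labelled KD, and *ADAT3* 6.39 and 6.93 against 7.32 and 7.02. These 2 of 7 members were the ones whose groups did not overlap, against 17.8% of genes (7.12% with KD below, as in *ADARB2*, and 10.7% with KD above, as in *ADAT3*), and neither was called (−0.45 and 0.09; limma, adjusted p = 1.0). *ADAT1* was at 3.35 and 5.01 RPKM in the controls and 3.75 and 4.39 in the libraries labelled KD, and *APOBEC3B* at 9.77 and 2.52 against 7.17 and 4.46, with overlapping groups. *ADAT2* and *APOBEC3F* were too low to test, with *ADAT2* at 0.321 and 0.626 RPKM against 0.228 and 1.33 from 37 reads in all.

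Whether PARS-seq and Ribo-seq differed in the effect of KD was tested as an interaction in limma, and 0 of 7 members and 0 of 10339 genes (0%) were called, with 163 genes (1.58%) at an unadjusted p under 0.05. The difference between the effects was 0.68 for *ADARB1*, with a 95% interval of −0.94 to 2.31, and −0.67 for *APOBEC3C*, with −2.21 to 0.86 (limma, adjusted p = 1.0 for both). Intervals this wide hold differences of 2-fold in either direction for *ADAR* (−2.36 to 1.94), and the value for *ADAR*, −0.21, turned to 0.89 without the library labelled KD replicate 2. Thus the calls in PARS-seq are not shown to be particular to that assay.

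The change in Ribo-seq less that in RNA-seq, a measure of the change in reads on ribosomes per transcript, was set against the single pair of RNA-seq libraries for each replicate number. For *ADAR* it was −0.43 for number 1 and 1.44 for number 2 on the log2 scale, the latter with the library labelled KD replicate 2. For *ADARB1* it was 1.02 and −0.67, for *APOBEC3C* −0.54 and 0.59 and for *APOBEC3B* −0.21 and 0.82. For *ADAT3* both values were near 0 (0.07 and −0.08). These 5 of 7 members had opposite signs in the 2 values, whereas *ADAT1* (0.67 and 0.38) and *ADARB2* (−0.33 and −0.53) kept theirs. No test was made, since both values share the same RNA-seq libraries. The share of all genes with opposite signs was not counted, so that 5 of 7 only describes these members.

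Other deaminases of the genome were followed from a list of 19 genes, of which 9 passed the minimum in PARS-seq and 3 were called, 1 up and 2 down, with a median of −0.04, beside 15.5% called (8.06% up and 7.43% down) and a median of 0.04 over all genes tested. The 9 include *APOBEC3A*, whose entry is the one shared with *APOBEC3B* and already described. The 9, the 3 calls and the 2 downward calls also include *APOBEC3H*, which passed the minimum only through its control columns. These counts are therefore not read against the background. *APOBEC3H*, a cytidine deaminase of the same gene cluster, was at 3.59 and 2.30 RPKM in the PARS-seq control columns and 0.130 and 0.0574 in the KD columns. It was nearly absent from KD, with a difference of −1.83 (limma, adjusted p = 0.000754, and 1.42e-83 to 0.0924 over 9 alternatives). Its mean of 1.52 RPKM passed the minimum only through the control columns (2.94 RPKM against 0.0939 in KD), so that a gene so selected had to differ and its call supports nothing further. The gene had 43 reads in the RNA-seq control and 0 in RNA-seq KD, a ratio with an upper 95% limit of 0.121, and 2 reads in each Ribo-seq control against 0 in each library labelled KD. *CDA*, the cytidine deaminase of nucleoside salvage, went from 198 and 197 RPKM to 99.7 and 102 in PARS-seq (−0.97; limma, adjusted p = 0.0104), while RNA-seq gave 193 and 181 RPKM. *GDA*, which deaminates guanine, rose from 33.6 and 37.6 to 62.4 and 59.1 RPKM (0.76; limma, adjusted p = 0.0230). None of the 8 tested in Ribo-seq, the shared entry included, was called, and *APOBEC1*, the enzyme that edits *APOB* mRNA, was at 0 in all columns. The call of *GDA* was lost without control replicate 1 (adjusted p = 0.0609) and without KD replicate 1 (0.0577), with a range of 1.62e-07 to 0.0927 over 10 alternatives.

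Several proteins are reported to regulate or carry ADAR enzymes, and 10 of them were counted here and tested in PARS-seq. Both KD columns lay above both control columns in 4 of the 10 (33.3% of genes tested) and below in 3 (27.1%), shares near the background. The median difference was −0.06, beside 0.04 over all genes tested. The 2 called genes that follow both fell, and are given as examples and not as a tally of calls. Over all genes tested, 15.5% were called (7.43% down). *KPNA3*, an importin, fell from 16.3 and 9.57 RPKM to 6.90 and 5.01 (−0.97; limma, adjusted p = 0.0354), and *SRSF9*, a splicing factor, fell from 57.5 and 64.4 to 38.1 and 41.6 (−0.60; limma, adjusted p = 0.0498). The 4 genes with KD above control were *XPO5* (0.54; limma, adjusted p = 0.0526), *AIMP2* (0.26), *CPSF6* (0.21) and *DHX9* (0.16), and none of these was called. *WWP2*, a ubiquitin ligase that acts on the stability of ADAR2, was at 5.40 and 5.16 RPKM in control and 5.44 and 5.03 in KD and was not called. The call of *SRSF9* was kept in 3 of 10 alternatives, and was lost in each fit that left out a column (adjusted p from 0.0581 to 0.184), with a pseudocount of 0.1 (0.0508), with a minimum mean of 5 RPKM (0.0511) and without a minimum (0.120). That of *KPNA3* was lost without control replicate 1 and without a minimum (limma, adjusted p = 0.264). The difference of *KPNA3* was −0.62 without control replicate 1 and −1.33 without control replicate 2. Over 10 alternatives adjusted p ranged from 4.6e-05 to 0.184 for *SRSF9* and 4.23e-17 to 0.264 for *KPNA3*.

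A list of 8 genes was drawn up around enzymes of inosine and uracil, *APEX1* included, and not each of them acts on these bases directly. All 8 were tested in PARS-seq, where 1 was called, upward, and the median was −0.07, beside 15.5% called (8.06% up) and a median of 0.04 over all genes tested, a share near the background. The called gene was *UNG*, the uracil glycosylase that removes the product of cytidine deamination from DNA, with 25.9 and 34.0 RPKM in control and 47.4 and 55.5 in KD (0.77; limma, adjusted p = 0.0341). It was higher in KD in RNA-seq as well, at 29.6 and 41.0 RPKM. *ENDOV*, the endonuclease that cleaves RNA at inosine, had 3.84 and 4.70 RPKM in control and 2.89 and 3.27 in KD, groups that did not overlap but gave no call (limma, adjusted p = 0.137). The call of *UNG* was lost without control replicate 1 (adjusted p = 0.129) and without KD replicate 2 (0.113), with a range of 5.33e-08 to 0.179 over 10 alternatives.

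ADAR1 is known to keep cellular double-stranded RNA from the sensors that induce interferon, and its p150 isoform is itself induced by interferon. Of 7 interferon-induced genes counted here, 6 were tested in PARS-seq, 2 were called, both down, and the median was −0.33, beside 15.5% called (7.43% down) and a median of 0.04 over all genes tested. Medians and directions of this list cover only the genes counted here. *IFIT1* went from 51.2 and 44.0 RPKM to 30.9 and 29.2 (−0.64; limma, adjusted p = 0.0403) and *OAS1* from 7.86 and 7.76 to 4.96 and 5.33 (−0.52; limma, adjusted p = 0.0478). The RNA-seq libraries pointed the other way, with all 6 counted genes above the minimum higher in KD and a median of 0.68, beside −0.01 over all genes. The largest RNA-seq difference of the list was that of *IFI6*, from 96.8 to 367 RPKM, and *OAS1* went from 23.4 to 34.8. In Ribo-seq the median was 0.54 beside 0.08 over all genes, with no call among 6. The Ribo-seq libraries stood apart by replicate number, with *IFIT1* at 31.4 RPKM in control replicate 1 and 52.2 in the library labelled KD replicate 1 but at 4.90 in control replicate 2 and 5.08 in the library labelled KD replicate 2. The call of *OAS1* was kept in 3 of 10 alternatives, and was lost in each fit that left out a column (adjusted p from 0.0929 to 0.177), with a minimum mean of 5 RPKM (0.0515), without a mean trend (0.0531) and without a minimum (0.111). That of *IFIT1* was lost without control replicate 1 (0.169), KD replicate 1 (0.0728) or KD replicate 2 (0.159) and without a minimum (0.121), with ranges of 6.09e-06 to 0.177 and 6.44e-06 to 0.169 over 10 alternatives.

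The genes most like *ADAR* over the 10 columns were sought among 5714 genes with a mean of at least 5 RPKM in each assay, by Pearson's correlation of log2(RPKM + 1) with each assay centred on its mean. They were *DYNC1LI2* (r = 0.967), which encodes a dynein light intermediate chain, *CLCN3* (0.955), a chloride transporter of endosomes, and the entry of *C22orf25* with *MIR185* (0.953). *DYNC1LI2* was at 16.9 and 19.8 RPKM in the PARS-seq controls and 14.0 in both KD columns, at 14.5 and 9.79 in RNA-seq and at 15.1, 14.3, 9.85 and 14.8 in the Ribo-seq libraries, controls first. It shared with *ADAR* the low value in the Ribo-seq library labelled KD replicate 1 and the control level in the library labelled KD replicate 2. These columns were part of the search that chose it, so that the likeness there is no separate observation. The genes most like *ADARB1* were *ABTB2* (0.986), *PPP1R15A* (0.967), a regulator of translation under stress, and *TARBP2* (0.966), a double-stranded RNA-binding partner of Dicer. The correlation of *ADAR* with *ADARB1* was −0.42. The columns share libraries' depth and scaling within an assay, and these values are descriptions.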

How the data were processed

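RNA-seq and Ribo-seq reads were aligned by the authors to hg19 (GRCh37) with Bowtie2 in local mode. Uniquely mapped reads were counted on RefSeq transcripts and deposited as RPKM. The submitters' processing notes also name cutadapt, and no versions are given in the sources used here. Deposited PARS-seq RPKM are the authors' means of an S1 and a V1 library. From these 10 columns, log2(RPKM + 1) was compared with limma 3.58.1 (R 4.3.3, mean trend, no block) within an assay, for genes averaging at least 1 RPKM, with Benjamini-Hochberg adjustment over all genes tested and a threshold of 0.05. RNA-seq, with 1 library per condition, was read by a 2-fold difference. Reads behind the PARS-seq values were not recovered, since means of 2 libraries keep no whole reads, and the study's read totals for these libraries were not used here. Intervals on ratios of reads are 95% Clopper-Pearson intervals and cover counting error only. An exact permutation test of 2 against 2 samples was not used for single genes. The study calls the PARS-seq replicates biological, but no source used here says whether replicates came from separate transfections, so that p-values measure the spread between these columns, which may be technical.

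All 10 members were named. Of the other lists, genes called in PARS-seq or Ribo-seq were named, and further genes with their values, except for a few genes, 1 of them called, that are not reported here. These were left out of list counts and medians, and the printed numbers of calls are the same with them. Medians, directions and numbers of genes tested that include them are not given. Members and lists were chosen with earlier results of these data known. *DDX15*, on the list of regulators, had no gene entry under that symbol and was not analysed here. Coordinates and coding sequences came from GENCODE lifted to GRCh37 and from the genome of that build. The limma step was tested on simulated data with independent noise and planted changes larger than those reported here. Changed genes were required to be found only at a spread cut below the real one. That test therefore does not show how well changes of the reported size are found. Alternatives covered the replicate block, a pseudocount of 0.1, no minimum or 5 RPKM, a shift of columns to the same median, limma with no trend and leaving out each column. Python 3.11.15, numpy 2.4.6, pandas 2.3.3, scipy 1.17.1 and matplotlib 3.10.9 were used.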

Additional observations from a re-analysis of the deposited data

Results flagged for a closer look

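*ADAT2* stood out because its PARS-seq and RNA-seq differences pointed in opposite directions, with both PARS-seq KD columns above both control columns. The difference of KD minus control was 0.83 on the log2(RPKM + 1) scale in PARS-seq and −0.18 in RNA-seq, so that the assays differed by 1.01. That difference was not tested, since RNA-seq has a single library per condition. The PARS-seq difference was not called (limma, adjusted p = 0.0503), and the RNA-seq mean of *ADAT2*, 0.667 RPKM, lay below the minimum of 1 RPKM.

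The interferon-induced genes *IFIT1* and *OAS1* were called lower in PARS-seq KD columns and were higher in the RNA-seq KD library. For *IFIT1* the differences were −0.64 in PARS-seq and 0.41 in RNA-seq, which are −1.06 apart. For *OAS1* they were −0.52 and 0.55, which are −1.07 apart. Neither difference between assays was tested.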

How the results depend on the processing

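With the replicate block in the fit, the count of genes called rose from 1728 to 5656 in PARS-seq and from 0 to 143 in Ribo-seq, and the test of the difference between assays called 1 gene in place of 0. The numbers are all that the samples are known to share, since the labels give no common batch or culture. Same-numbered columns deviated together (r = 0.658 over 11153 genes in PARS-seq and 0.811 over 10882 in Ribo-seq), with 2 pairs per assay. In that fit *ADARB2* (adjusted p = 0.00917, range over 9 alternatives 0.00917 to 0.714) and *ADAT2* were called in PARS-seq, and *ADAR* in Ribo-seq (adjusted p = 0.0238).

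Other settings moved the PARS-seq count to 0 without the minimum level and to 1118 with a minimum mean of 5 RPKM, with fewer genes tested in the latter, and gave 1587 to 1709 under the 3 remaining ones. Of the calls, 899 were up and 829 down, a balance that turned to 737 up and 930 down with columns shifted to the same median, 526 and 592 with the minimum of 5 RPKM, 792 and 795 without a mean trend and 617 and 645 without control replicate 1. Leaving out each column in turn gave 1154 to 2571 in PARS-seq, 0 in Ribo-seq and 0 for the difference between assays, where the lone column of a condition is assumed to vary like the others. A pseudocount of 0.1 took the RNA-seq count past 2-fold from 189 to 375.

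Some members changed sign when a column was left out, and the ranges of their differences follow on the log2 scale. In PARS-seq they were −0.22 to 0.21 for *ADAT1*, −0.12 to 0.39 for *ADAT3* and −0.29 to 0.0687 for *APOBEC3B*. In Ribo-seq they were −0.45 to 1.07 for *ADARB1*, −0.25 to 0.22 for *ADAT1*, −0.69 to 0.92 for *APOBEC3B* and −0.89 to 0.42 for *APOBEC3C*. For PARS-seq minus Ribo-seq they were −1.32 to 0.89 for *ADAR*, −0.073 to 1.44 for *ADARB1*, −0.11 to 0.43 for *ADARB2*, −0.22 to 0.25 for *ADAT1*, −0.21 to 0.30 for *ADAT3* and −1.04 to 0.58 for *APOBEC3B*. None of these results was called, and the cause of the changes was not tested. Over members and alternatives, 62 of 76 PARS-seq values, 61 of 68 Ribo-seq values and 57 of 70 values of PARS-seq minus Ribo-seq kept their direction and call, and 20 of 21 RNA-seq values moved within counting error.

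Precision was limited by 2 columns per condition, by the single RNA-seq library per condition and by Ribo-seq counts that were under 100 reads for most members. The absence of the markers of the labelled line, and the Ribo-seq library labelled KD replicate 2 with *ADAR* at a control level, bear on how far the values describe the labelled cells and condition. The entries of *ADAT3* and *APOBEC3B* hold another gene each, and identical stretches among APOBEC3 genes can remove reads.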
